A study of Homo sapiens with 6 samples.

Results

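The 10 genes described here encode the core of the desmosome in stratified epithelium: the desmogleins DSG1, DSG2 and DSG3, the desmocollins DSC1, DSC2 and DSC3, desmoplakin (DSP), plakoglobin (JUP) and the plakophilins PKP1 and PKP3. They were taken by gene symbol from a table of 17448 genes measured by RNA-seq, and all 10 were found. The cells were HCC2814, a human lung squamous cell carcinoma (LUSC) line, labelled as epithelial and grown in medium with fetal bovine serum. WT cells carried non-targeting control sgRNA and MLST8-KO cells carried sgRNA against MLST8, a subunit of mTORC1 and mTORC2. Each group had 3 samples, which the submitters describe as biological replicates from independent experiments. Both groups received lentiviral CRISPR guides followed by antibiotic selection, and no source describes single-cell cloning for this human line, so MLST8-KO is read here as a selected population. The paper's western blots of HCC2814 and H596 list 3 numbered sgControl and 3 numbered sgMLST8 entries. The paper does not say whether the 3 sequenced samples of each group correspond to these. The comparison asks how the transcriptome of LUSC cells differs when mTORC2 is targeted.

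Desmosomes are buttons of adhesion that rivet the keratin filaments of neighbouring epithelial cells to each other. Desmogleins and desmocollins are cadherins that bind across the gap between cells, plakoglobin and plakophilins bind their cytoplasmic tails, and desmoplakin ties this plaque to keratin. In stratified epithelium DSG3 and DSC3 are strongest in the basal layers and DSG1 and DSC1 in the upper layers, whereas DSG2 and DSC2 are also found in simple epithelia and heart. Squamous carcinomas usually retain desmosomes, as the epithelia they resemble do.

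Estimated counts summed to between 14381673 and 15744154 per sample. Levels of a single gene are given in CPM, which relates its counts to the TMM-scaled size of the library, and levels of different genes are compared only in TPM, which is corrected for transcript length. A gene without reads may still be present at up to 3 counts (0.216 CPM in WT replicate 3, the library with the fewest counts), a floor for counting error only. MLST8 itself read 57.97, 56.95 and 60.75 CPM in WT replicates 1, 2 and 3 and 25.55, 38.85 and 25.68 CPM in MLST8-KO replicates 1, 2 and 3, so every MLST8-KO sample lay below every WT sample (log2 fold change -0.96 ± 0.15 SE, adjusted p = 0.00339, edgeR). The 7 squamous or basal epithelial markers, which include TP63, SOX2, KRT5 and KRT14, were all detected and summed to 12380 to 17950 CPM in WT and 20260 to 22540 CPM in MLST8-KO samples. KRT5, KRT6A, KRT14 and TP63 made up most of this sum, which moved with the desmosome genes described next. EPCAM (log2 fold change 0.01, adjusted p = 0.898, edgeR) and CDH1 (0.28, adjusted p = 0.101) were not called. The part of the sum in the desmosome results was not tested. Markers of immune cells (2 of 3 listed) summed to at most 0.361 CPM in any sample, and endothelial markers to at most 3.51 CPM. Fibroblast or mesenchymal markers summed to 44.4 to 46.4 CPM in WT and 48.3 to 56.5 CPM in MLST8-KO samples, and alveolar or adenocarcinoma markers to 1.80 to 4.05 and 8.90 to 10.7 CPM. The alveolar or adenocarcinoma sum was nearly all NKX2-1, as NAPSA and SFTPB were near 0 and SFTPC was not listed. Of the cardiac markers, heart being another tissue with desmosomes, the sum was 15.0 to 19.6 CPM in WT and 6.90 to 9.35 CPM in MLST8-KO samples. This sum was in effect the single gene TNNT2, because MYH6 had 1 count in WT replicate 1 and none elsewhere, and MYH7 was not listed. MLST8-KO replicate 1 stood apart by 6 hepatocyte markers, which summed to 234 CPM there and to at most 6.5 CPM in any other sample. Counts of desmosome genes called are given with and without that library, as are most counts for the related lists. Family sums and shares include it.

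Of the 10 desmosome genes, 9 had enough counts to be tested and 7 of these were higher in MLST8-KO than in WT cells at an adjusted p under 0.05, whereas 16.3% of all 12951 genes tested were higher (32.0% were called in either direction). None of the 9 was lower, at an adjusted or an unadjusted p under 0.05 with edgeR or at an adjusted p in DESeq2 and limma, against 15.7% of all genes in edgeR. On the log2 scale the median fold change was 0.62 for the 9 desmosome genes tested and 0.00 for all genes tested. In 5 of the 9, and in DSC1 as a sixth gene below the test's filter, every MLST8-KO sample lay above every WT sample, which held for 24.8% of all genes tested. The log2 fold changes ran from 0.08 for PKP3 to 1.57 for DSG1. These are bulk measurements, in which more cells that express a gene and more of its RNA per cell cannot be told apart.

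**Figure D1:**
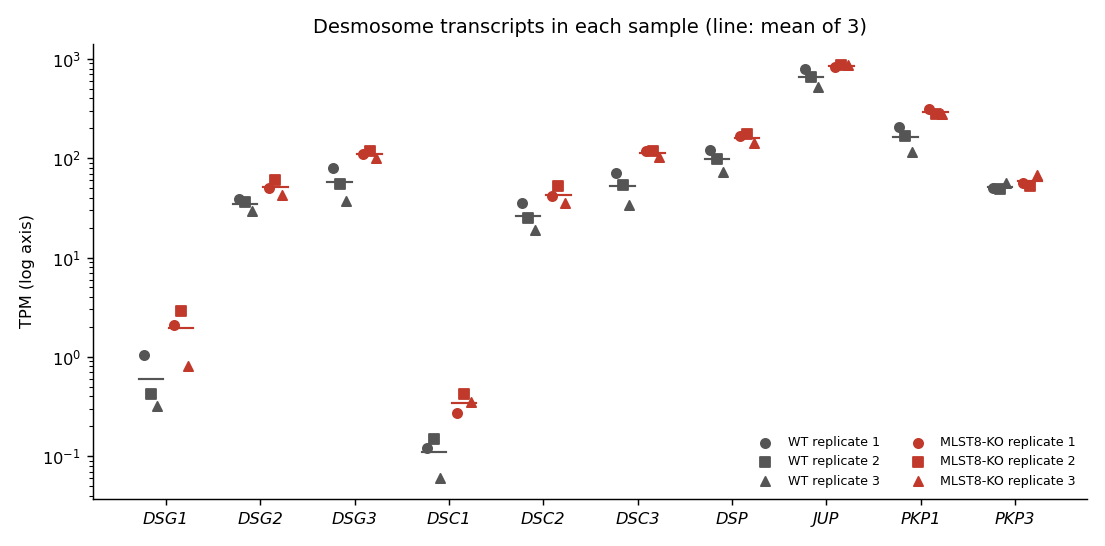
The level of each of the 10 desmosome genes in each of the 6 samples, in TPM on a log axis, with WT in grey, MLST8-KO in red, symbols for replicate numbers and a line at the mean of 3. JUP is the most abundant transcript at 655 TPM in WT and 856 TPM in MLST8-KO cells, DSG1 and DSC1 are the least abundant, and the WT samples spread in the same order in 8 genes.

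On the TPM scale, which allows genes to be compared, JUP led with 655 ± 137 TPM in WT (mean ± SD, n = 3) and 856 ± 19.1 TPM in MLST8-KO cells. PKP1 followed at 164 ± 46.1 and 289.5 ± 17.6 TPM, and DSP at 97.9 ± 24.2 and 161 ± 17.9 TPM, with ranges that met in WT but not in MLST8-KO samples. DSG3, DSC3 and PKP3 were close to each other in WT cells at 57.5 ± 21.7, 52.9 ± 19.1 and 51.8 ± 3.65 TPM, and these levels did not differ beyond their spread. In MLST8-KO cells DSC3 (113 ± 9.81 TPM) and DSG3 (109.5 ± 8.04 TPM) stayed within their spread of each other, and both stood above PKP3 (58.9 ± 7.49 TPM) in every sample and below DSP. DSG2 (34.6 ± 4.89 and 50.9 ± 8.78 TPM) and DSC2 (26.4 ± 8.25 and 42.9 ± 8.41 TPM) came next and overlapped in both groups, and DSG2 reached into the range of PKP3 in MLST8-KO samples. DSG1 (0.597 ± 0.396 and 1.94 ± 1.07 TPM) and DSC1 (0.11 ± 0.0458 and 0.347 ± 0.0751 TPM) were far below the rest. The partners that are usually highest in basal layers, DSG3 and DSC3, were each the most abundant member of its family in this line, and DSG1 and DSC1, those of upper layers, were the scarcest of the 6 cadherins.

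The 6 cadherin genes lie in 1 cluster on chromosome 18 that spans 559 kb, from 30990008 to 31549008 in GRCh38, with DSC3, DSC2 and DSC1 on the minus strand and DSG1, DSG4, DSG3 and DSG2 on the plus strand. Because 5 of the 6 were called in the same direction, the sequences before their start sites were compared. RefSeq promoters (GRCh38.p14) were found for 9 of the 10 desmosome genes, with 11 start sites in all. PKP3 was not among them. Of 21 pairs of cadherin promoters, aligned over the 250 bases before the start, DSG1 and DSG3 had the best local alignment, with a score of 37 against 14 for the next pair (match 1, mismatch -1, gap opening -4, gap extension -1). It covered 136 columns, of which 94 were identical (69.1%) and 9 were gaps, and ran from -178 to -47 in DSG1 and from -139 to -9 in DSG3, counted from the RefSeq start. Both are shown 5′ to 3′ on the plus strand because they gave the best alignment, with the aligned bases in capitals. The DSG1 sequence, at chr18:31317910-31318088, ends at the base before the start of the GENCODE gene and so leaves out the end of the aligned stretch, and the DSG3 sequence is at chr18:31447491-31447740.
DSG1: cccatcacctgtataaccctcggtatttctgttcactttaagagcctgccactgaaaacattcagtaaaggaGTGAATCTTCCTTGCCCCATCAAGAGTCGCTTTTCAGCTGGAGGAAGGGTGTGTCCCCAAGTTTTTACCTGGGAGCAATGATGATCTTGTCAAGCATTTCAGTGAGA
DSG3: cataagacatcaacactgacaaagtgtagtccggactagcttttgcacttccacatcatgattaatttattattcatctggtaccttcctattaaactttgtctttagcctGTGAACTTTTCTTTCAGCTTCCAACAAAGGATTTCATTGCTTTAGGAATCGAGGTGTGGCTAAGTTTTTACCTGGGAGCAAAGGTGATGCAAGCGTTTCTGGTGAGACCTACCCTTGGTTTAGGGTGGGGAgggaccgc
Within the capitals both hold the run of 20 bases AAGTTTTTACCTGGGAGCAA, which starts at -120 in DSG1 and -78 in DSG3 and was found on either strand in 2 of 35116 RefSeq promoters, namely these. The E-box letters CACCTG, which SNAI and ZEB repressors can bind, were present on either strand before 5 of the 11 start sites (DSP, the second JUP start, DSC2, DSG1 and DSG2) and in 17.5% of all promoters. The KLF letters CACCC were before all 11 starts and in 54.7% of all promoters. None of the 11 held the AP-1 letters TGANTCA (6.57% of all promoters), the grainyhead letters AACCGGTT (0.117%) or AACCNGTT (1.49%), or TATAAA (10.7%). A match describes letters in this window and not binding.

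Among the desmogleins, DSG3 (Entrez 1830, chromosome 18, 31447795 to 31478702) had 242, 165 and 115 CPM in WT replicates 1, 2 and 3 and 307, 322 and 295 CPM in MLST8-KO replicates 1, 2 and 3. DSG3 is the basal-layer desmoglein and the antigen of pemphigus vulgaris. Every MLST8-KO sample exceeded every WT sample, and the MLST8-KO samples were the tighter group. The log2 fold change was 0.82 ± 0.20 SE (95% interval 0.37 to 1.28, adjusted p = 0.0143, edgeR). The call did not hold without MLST8-KO replicate 2 (0.79, adjusted p = 0.0584, edgeR) or without WT replicate 2 (0.78, adjusted p = 0.0600). Leaving out either of the other WT libraries moved the estimate to 1.14 (replicate 1) and 0.60 (replicate 3), both still called.

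DSG2 (Entrez 1829, 31498043 to 31549008), the desmoglein of simple epithelia and heart that proliferating carcinoma cells also carry, had 123, 114 and 95.96 CPM in WT and 149, 174 and 130.4 CPM in MLST8-KO samples. Here too no MLST8-KO sample fell within the WT range, though the gap between the groups was small. It was higher by 0.45 ± 0.12 SE on the log2 scale (95% interval 0.18 to 0.71, adjusted p = 0.0205, edgeR). The adjusted p rose to 0.0622 without MLST8-KO replicate 1, 0.0854 without MLST8-KO replicate 2 and 0.0630 without WT replicate 2, with log2 fold changes of 0.46, 0.33 and 0.46.

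DSG1 (Entrez 1828, 31318089 to 31357029), the desmoglein of upper epidermal layers and the antigen of pemphigus foliaceus, rested on few reads, with 63, 24 and 18 counts in WT and 120, 171 and 48 counts in MLST8-KO samples. In CPM these were 4.18, 1.65 and 1.30 against 7.74, 10.6 and 3.07. WT replicate 1 lay above MLST8-KO replicate 3, so the groups overlapped. DSG1 had the largest log2 fold change of the 9 genes tested and the widest interval, 1.57 ± 0.48 SE (95% interval 0.51 to 2.63, adjusted p = 0.0307, edgeR). The call was lost without MLST8-KO replicate 1 (1.51, adjusted p = 0.0861), MLST8-KO replicate 2 (1.17, adjusted p = 0.136) or WT replicate 2 (1.36, adjusted p = 0.112), and the estimate rose to 2.26 without WT replicate 1 (adjusted p = 0.00172, all edgeR).

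**Figure D2:**
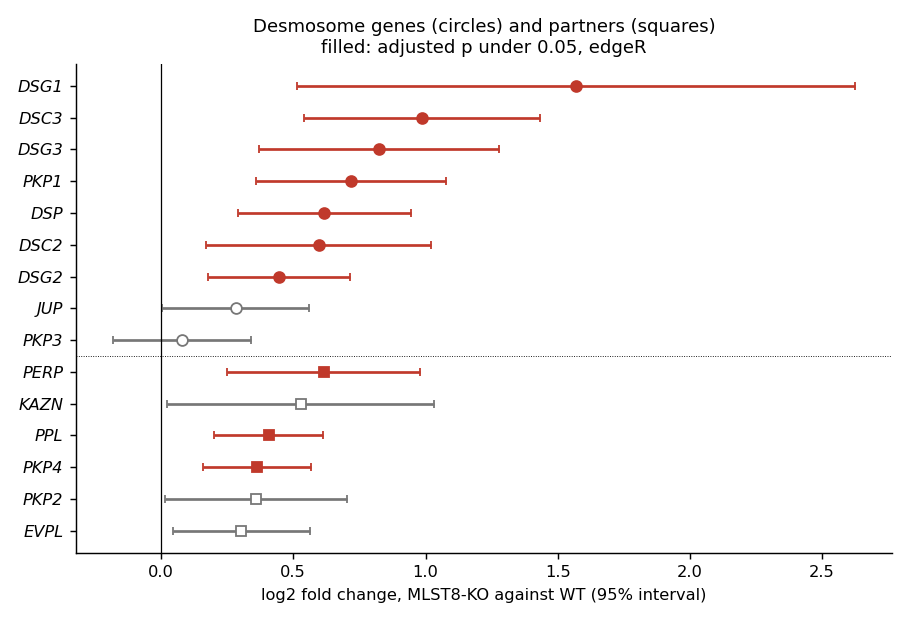
Log2 fold change of MLST8-KO against WT with its 95% interval from edgeR for the 9 desmosome genes tested (circles) and 6 further desmosome components and partners (squares), filled where the adjusted p was under 0.05. All estimates lie above 0, from 0.08 for PKP3 to 1.57 for DSG1, and the PKP3 interval is the one that crosses 0.

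Of the desmocollins, DSC3 (Entrez 1825, 30990008 to 31042815), the basal-layer form, showed the clearest difference. It had 302, 222 and 146 CPM in WT and 458, 457 and 413 CPM in MLST8-KO samples. The lowest MLST8-KO sample was well above the highest WT sample. DSC3 was higher by 0.99 ± 0.20 SE on the log2 scale, a 1.98-fold difference (95% interval 0.54 to 1.43, adjusted p = 0.00711, edgeR), and remained called whichever library was left out (0.76 to 1.27).

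DSC2 (Entrez 1824, 31058840 to 31102522), the most widely expressed desmocollin, had 94.65, 65.35 and 53.0 CPM in WT and 103, 128 and 90.7 CPM in MLST8-KO samples. WT replicate 1 exceeded MLST8-KO replicate 3, so these groups overlapped. Its log2 fold change was 0.60 ± 0.19 SE (95% interval 0.17 to 1.02, adjusted p = 0.0378, edgeR). This call was the least stable of the 7, because DESeq2 did not make it (0.59, adjusted p = 0.111) and it held in 1 of 6 edgeR fits that left out a library, the one without WT replicate 1 (0.86, adjusted p = 0.000533). Without MLST8-KO replicates 1, 2 and 3 the adjusted p was 0.0836, 0.155 and 0.0507, and without WT replicates 2 and 3 it was 0.128 and 0.0593.

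DSC1 (Entrez 1823, 31129236 to 31162856), the form of the uppermost living layers, was near the floor with 4, 5 and 2 counts in WT and 9, 14 and 12 counts in MLST8-KO samples. All 3 MLST8-KO samples were above all WT samples, but the counts were too few for the filter. In the edgeR fit without a filter its log2 fold change was 1.51 ± 0.53 SE (95% interval 0.37 to 2.65, adjusted p = 0.0538), and in DESeq2 it was 1.54 (adjusted p = 0.135). It passed the filter in 4 of the 6 edgeR fits that left out a library. The adjusted p was 0.0494 without WT replicate 1 (1.55), 0.0621 without WT replicate 2 (1.79), 0.104 without WT replicate 3 (1.26) and 0.0586 without MLST8-KO replicate 1 (1.66), and no call is made from the full set of samples.

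DSP (Entrez 1832, chromosome 6, 7541575 to 7586717), the plakin that links the plaque to keratin and without which desmosomes do not anchor filaments, had 609, 497 and 379 CPM in WT and 781, 812 and 685 CPM in MLST8-KO samples. The groups did not overlap. It was higher by 0.62 ± 0.15 SE on the log2 scale (95% interval 0.29 to 0.94, adjusted p = 0.0126, edgeR), and only without MLST8-KO replicate 2 was the call lost among the 6 fits that left out a library (0.57, adjusted p = 0.0565).

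JUP (Entrez 3728, chromosome 17, 41754604 to 41786931) encodes plakoglobin, an armadillo protein shared by desmosomes and adherens junctions. It had 1462, 1199 and 987 CPM in WT and 1433, 1443 and 1557 CPM in MLST8-KO samples. WT replicate 1 reached the level of the MLST8-KO samples, whereas the other WT samples were below them. The log2 fold change of 0.28 ± 0.13 SE did not pass (95% interval 0.00 to 0.56, adjusted p = 0.107, edgeR). JUP was called without WT replicate 1 (0.43, adjusted p = 0.00413, edgeR) and by limma on log2(TPM + 1) (0.41, adjusted p = 0.0416), a scale on which the median of all genes was 0.09.

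The plakophilins are armadillo proteins that cluster desmosomal components in the plaque. PKP1 (Entrez 5317, chromosome 1, 201283452 to 201332993), the plakophilin of stratified epithelia, had 604, 488 and 347 CPM in WT and 839, 743 and 787 CPM in MLST8-KO samples, with no overlap. It was higher by 0.72 ± 0.16 SE on the log2 scale (95% interval 0.36 to 1.08, adjusted p = 0.0101, edgeR) and was called in all 6 fits that left out a library (0.53 to 0.92). PKP3 (Entrez 11187, chromosome 11, 392614 to 404908), found in both simple and stratified epithelia, had 74.75, 73.5 and 86.7 CPM in WT and 78.96, 71.96 and 97.2 CPM in MLST8-KO samples. The groups overlapped fully, and replicate 3 was highest in each. Its log2 fold change was 0.08 ± 0.12 SE (95% interval -0.18 to 0.34, adjusted p = 0.628, edgeR), an interval that lies below the estimate for PKP1, although the difference between both genes was not tested. Without MLST8-KO replicate 3 the estimate for PKP3 was -0.05 (adjusted p = 0.720).

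The number of desmosome genes called depended on the library left out. It was 4 without MLST8-KO replicate 1, 2 without MLST8-KO replicate 2 (DSC3 and PKP1), 6 without MLST8-KO replicate 3, 9 without WT replicate 1, 3 without WT replicate 2 (DSC3, DSP and PKP1) and 6 without WT replicate 3. The number of all genes called higher also fell, from 2116 to 979 without MLST8-KO replicate 1, 1136 without MLST8-KO replicate 2 and 971 without WT replicate 2. No desmosome gene was lower in any of these fits at an adjusted p under 0.05. Without MLST8-KO replicate 1, the library with hepatocyte transcripts, the log2 fold changes of the called genes were close to those with it, at 0.83 for DSG3, 0.96 for DSC3, 0.60 for DSP and 0.67 for PKP1.

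WT samples varied in a shared order. In 8 of the 9 genes tested, all but PKP3, WT replicate 1 was the highest and WT replicate 3 the lowest WT sample, an order found in 27.3% of all genes tested. The SD of log2 CPM among WT samples had a median of 0.40 over the 9 desmosome genes and of 0.15 over all genes tested. Among MLST8-KO samples the medians were 0.13 and 0.12. DSG3 had the largest contrast of this kind, its SD being 0.54 for WT and 0.06 for MLST8-KO, followed by DSC3 (0.53 and 0.09). WT replicates 1 and 3 were also the pair of libraries of one group that differed most over all genes (chi-square per gene 26.2, against 6.77 to 10.1 for the other pairs). The size of each desmosome difference varied with the WT library left out, from 0.76 to 1.27 in DSC3.

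The make-up of each family was described by the share of each member in the family's summed TPM. Among desmocollin TPM, DSC3 made up 66.9, 68.2 and 63.7% in WT and 73.9, 69.5 and 74.0% in MLST8-KO samples, so every MLST8-KO sample was above every WT sample, and DSC2 was correspondingly below. The mean share of DSC3 was 66.3 ± 2.28% and 72.5 ± 2.56%, and that of DSC2 33.6 ± 2.31% and 27.3 ± 2.54%. PKP1 made up 79.45, 75.9 and 66.2% of plakophilin TPM in WT and 83.5, 82.7 and 79.6% in MLST8-KO samples, again without overlap, although WT replicate 1 and MLST8-KO replicate 3 were close. PKP3 made up 24.5 ± 6.79% in WT and 16.7 ± 2.16% in MLST8-KO samples, and PKP2, the plakophilin of heart and simple epithelia, 1.64 ± 0.276% and 1.39 ± 0.222%.

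**Figure D3:**
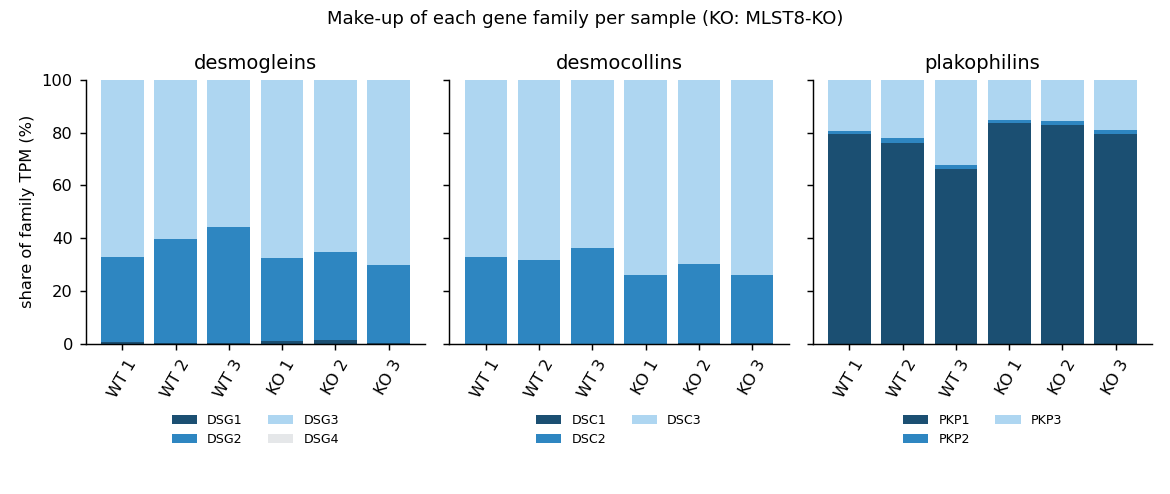
Share of each member in the summed TPM of the desmogleins, desmocollins and plakophilins, in percent, as a stacked bar for each of the 3 WT and 3 MLST8-KO samples. DSC3 is at 63.7 to 68.2% of desmocollin TPM in WT and 69.5 to 74.0% in MLST8-KO samples, whereas the DSG3 shares of the groups overlap.

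Desmoglein shares overlapped between groups, with DSG3 at 66.9, 60.2 and 55.7% in WT and 67.6, 65.1 and 70.1% in MLST8-KO samples. DSG2 made up 38.45 ± 5.86% and 31.2 ± 1.96%, and DSG1 0.605 ± 0.236% and 1.16 ± 0.547%. DSC1 made up 0.139 ± 0.0456% and 0.223 ± 0.0466% of desmocollin TPM. Summed over each family, desmogleins went from 92.7 ± 26.7 to 162 ± 17.9 TPM, desmocollins from 79.5 ± 27.2 to 156 ± 17.5 TPM and plakophilins from 219 ± 43.2 to 353 ± 16.8 TPM. Desmocollins were 47.2, 46.0 and 44.3% of all desmosomal cadherin TPM in WT and 49.5, 48.8 and 48.7% in MLST8-KO samples, a small difference without overlap. The shares are given as a description, with no test. The smallest two-sided p that an exact permutation test of 3 against 3 samples can give is 0.1.

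Genes within and beside the cadherin cluster were also read out. DSG4, the desmoglein of hair that lies between DSG1 and DSG3, had 0, 0 and 1 counts in WT and 0, 1 and 0 counts in MLST8-KO samples, all under the floor. On the far side of DSG2, 8 kb away, TTR, a plasma transport protein made by the liver, had 11, 3 and 0 counts in WT and 480, 8 and 7 counts in MLST8-KO samples, so it was high in MLST8-KO replicate 1, the library with the other hepatocyte transcripts, and was not tested. CDH2 (N-cadherin), the next protein-coding gene 2813 kb beyond DSC3, had 7, 15 and 7 counts in WT and 116, 27 and 11 counts in MLST8-KO samples. CDH2 was called higher (log2 fold change 2.28 ± 0.79 SE, adjusted p = 0.0491, edgeR), but the groups overlapped and the call was lost without MLST8-KO replicate 1, MLST8-KO replicate 2 or WT replicate 2. DSG2, next to TTR, lay between the other MLST8-KO samples in replicate 1. Antisense genes overlap DSC1 and DSC2 (DSCAS), DSC1 (AC012417.1), DSG1 (DSG1-AS1) and DSG2 (DSG2-AS1) and were not analysed here. Whether counting used strand is not given in the sources used here, so reads of these pairs cannot be told apart.

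**Figure D4:**
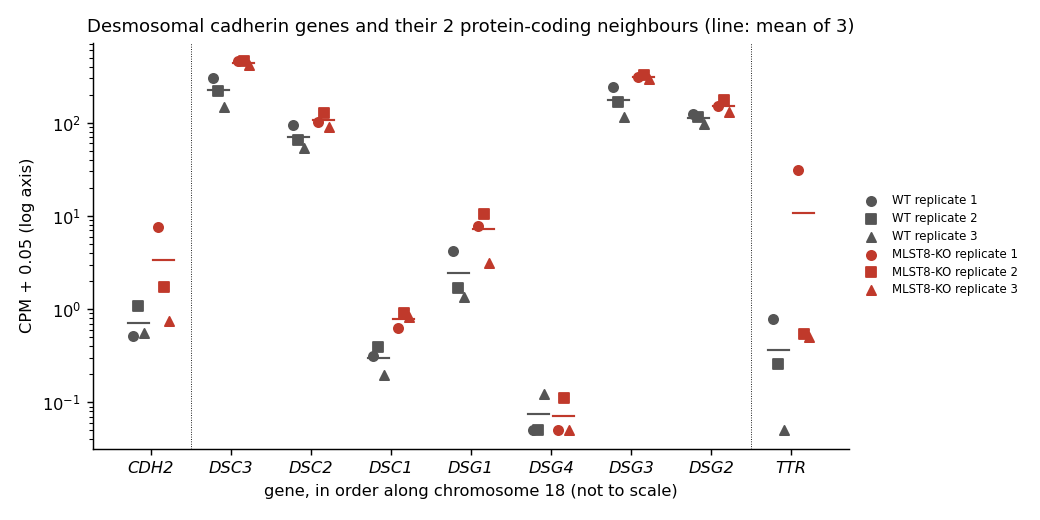
CPM (with 0.05 added, log axis) of the 7 desmosomal cadherin genes in their order along chromosome 18 and of the protein-coding neighbour on each side, beyond the dotted lines, for the 3 WT (grey) and 3 MLST8-KO (red) samples with a line at the mean. DSC3, DSC1, DSG3 and DSG2 separate the groups, DSC2 and DSG1 overlap, and TTR and CDH2 are highest in MLST8-KO replicate 1.

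Further desmosome components and plaque partners were looked at as a list of 8 genes, of which 6 were tested. PERP, PPL and PKP4 rose, none fell (0 at an unadjusted p under 0.05 too, and 0 in DESeq2 and limma), and the median log2 fold change was 0.39. All genes tested had shares of 16.3% higher and 15.7% lower. PERP, a membrane protein of desmosomes and a p63 target, had 870.3, 671 and 495 CPM in WT and 1118, 1028 and 974 CPM in MLST8-KO samples (log2 fold change 0.62 ± 0.16 SE, adjusted p = 0.0193, edgeR). PPL (periplakin, a DSP relative) had 86.6, 82.35 and 69.3 CPM against 106.5, 104.8 and 104.5 CPM (0.41 ± 0.09 SE, adjusted p = 0.0107), and PKP4, an armadillo protein of junctions, 39.0, 37.5 and 35.3 CPM against 47.1, 52.5 and 44.2 CPM (0.36 ± 0.09 SE, adjusted p = 0.0159). KAZN, PKP2 and EVPL did not pass, at 0.53, 0.36 and 0.30 with adjusted p-values of 0.0977, 0.0988 and 0.0701 (edgeR). In PERP, PPL and PKP4 the WT samples had the same order as in the desmosome genes. The count that rose was 1 without MLST8-KO replicate 1, MLST8-KO replicate 2 or WT replicate 2 and 5 without WT replicate 1.

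Keratins, the filaments that desmosomes hold, moved in both directions. Of 12 keratin and linker genes tested, 7 rose, 2 fell and 3 did not pass, with a median log2 fold change of 0.43. The basal pair KRT5 and KRT14 had 6779, 5156 and 4404 CPM and 3402, 2589 and 2123 CPM in WT, and 8255, 7556 and 7674 CPM and 5403, 4190 and 5250.0 CPM in MLST8-KO samples (log2 fold changes 0.52 and 0.87, adjusted p = 0.0174 and 0.00509, edgeR). KRT1, a keratin of upper-layer cells, had the largest difference, from 34.8, 20.7 and 6.28 CPM to 134, 101.5 and 104.5 CPM (2.45 ± 0.40 SE, adjusted p = 0.00370). KRT10, the usual filament partner of KRT1, had 16.4, 27.2 and 28.3 CPM in WT and 20.97, 13.9 and 13.8 CPM in MLST8-KO samples, and its log2 fold change was of the other sign and did not pass (-0.56 ± 0.22 SE, adjusted p = 0.0722, edgeR). KRT6C, KRT17 and KRT16, keratins of activated and hyperproliferative epithelium, rose by 2.12, 0.85 and 0.81. KRT8 and KRT18, the pair of simple epithelia, were lower in every MLST8-KO sample and fell by 0.47 and 0.86 (adjusted p = 0.0124 and 0.00542). KRT6B (0.00) and PLEC (0.19) did not pass. The number that rose was 5 without any 1 of the MLST8-KO samples or WT replicate 2. The number that fell was 1 without MLST8-KO replicate 2 and 3 in DESeq2. Reads of the closely related KRT6A, KRT6B and KRT6C, and of KRT14, KRT16 and KRT17, may be split uncertainly.

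**Figure D5:**
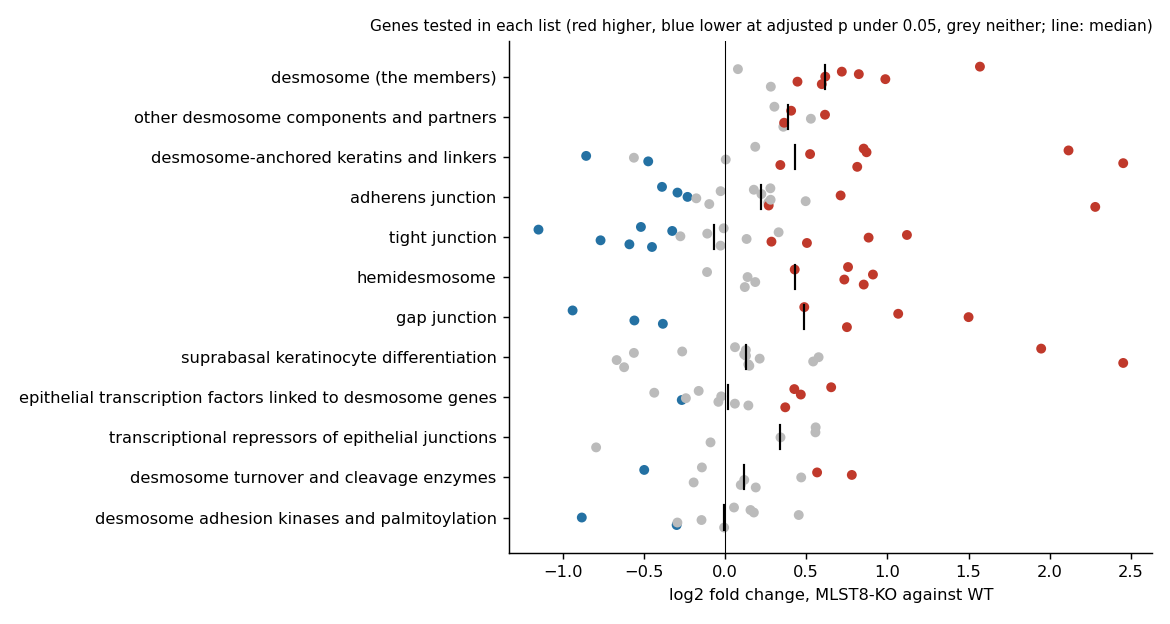
Log2 fold change of MLST8-KO against WT (edgeR) for each gene tested in the desmosome set and 11 related lists, red where higher and blue where lower at an adjusted p under 0.05, grey where neither, with a black line at the list's median. The desmosome set has the highest median, 0.62, and no blue point, while tight junction and gap junction genes lie on both sides of 0. Blue points are also absent from the lists of other desmosome components, hemidesmosome genes, upper-layer differentiation genes and junction repressors.

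In the adherens junction list 3 of 15 genes rose, 3 fell and the median was 0.22. These counts were near the shares of all genes tested (16.3% higher and 15.7% lower), and the split moved with the scale, to 6 higher and 1 lower in limma on log2(TPM + 1) and 5 higher and 2 lower with upper quartile scaling. AJUBA rose by 0.71 (adjusted p = 0.0145, edgeR) and CTNNA1 (alpha-catenin) by 0.27 (adjusted p = 0.0197), and CDH2 is described above. ZYX (zyxin), NECTIN2 and CTNNB1 (beta-catenin, the relative of plakoglobin that takes its place in adherens junctions) fell by 0.39, 0.29 and 0.23 (adjusted p = 0.0153, 0.0152 and 0.0423). CDH1 (E-cadherin), the classical cadherin of these junctions, had a log2 fold change of 0.28 that did not pass (adjusted p = 0.101). CTNND1, VCL and NECTIN1 did not pass either, at -0.03, 0.28 and 0.27. Both counts of this list were 0 without MLST8-KO replicate 1, MLST8-KO replicate 2 or WT replicate 2, and 6 rose without WT replicate 1.

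Of 16 tight junction genes, 4 rose, 6 fell and the median was -0.07, beside 16.3% higher and 15.7% lower over all genes tested. CLDN1 (claudin-1), the claudin of stratified epithelium, had 435, 348 and 272 CPM in WT and 663, 791 and 493 CPM in MLST8-KO samples (log2 fold change 0.88 ± 0.19 SE, adjusted p = 0.00807, edgeR). CLDN7 had 118, 134 and 174 CPM against 74.5, 78.9 and 96.6 CPM, and fell by 0.77 (adjusted p = 0.00562). CLDN1 and CLDN7 thus moved in opposite directions, each without overlap. CLDN3, TJP3, OCLN (occludin) and CLDN4 fell by 1.15, 0.59, 0.52 and 0.45, whereas CGN (cingulin) and MARVELD3 rose by 1.12 and 0.50. TJP1 and F11R, at -0.11 and -0.03, did not pass. The number that rose was 3 without MLST8-KO replicate 1, MLST8-KO replicate 2 or WT replicate 2. The number that fell was 2 without MLST8-KO replicate 1, MLST8-KO replicate 3 or WT replicate 2 and 3 without WT replicate 3 or in limma on log2(TPM + 1).

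Hemidesmosomes tie keratin to the basement membrane rather than to a neighbouring cell. Of 9 genes tested 5 rose and none fell (0 also at an unadjusted p under 0.05, and 0 in DESeq2 and limma), and the median was 0.43. The shares over all genes tested were 16.3% higher and 15.7% lower. DST (dystonin, the DSP relative of hemidesmosomes) had 70.8, 59.97 and 46.2 CPM in WT and 115.5, 121 and 96.1 CPM in MLST8-KO samples (log2 fold change 0.91 ± 0.15 SE, adjusted p = 0.00359, edgeR). COL17A1 had 145, 118 and 119.7 CPM against 243, 236.5 and 212 CPM (0.85 ± 0.10 SE, adjusted p = 0.00281), and no sample of either gene crossed into the other group's range. LAMA3, ITGA6 and ITGB4 rose by 0.76, 0.73 and 0.43. LAMB3 (0.12) and PLEC did not pass. The count stayed at 4 or 5 whichever library was left out.

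Markers of upper-layer keratinocyte differentiation, the setting in which DSG1 and DSC1 are usually strong, mostly did not pass. Of 15 genes tested, KRT1 and KRT13 rose and none fell, with 1 gene lower at an unadjusted p under 0.05, 1 called lower in DESeq2 and 0 in limma. With the replicate block 2 were called lower. Over all genes tested 16.3% were higher and 15.7% lower, so the number that rose was near the general share. KRT13 had 22.2, 13.01 and 5.63 CPM in WT and 50.3, 49.5 and 58.7 CPM in MLST8-KO samples (log2 fold change 1.95 ± 0.33 SE, adjusted p = 0.00397, edgeR). The median of the list was 0.13, against 0.00 for all genes. Without WT replicate 3, 2 genes of this list were called lower, and 1 was without WT replicate 1 or MLST8-KO replicate 1.

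Transcription factors linked to desmosome genes in epithelium were described as a list of 12 tested genes, of which 4 rose, with a median of 0.02. Of all genes tested, 16.3% were higher. TP63, the master regulator of stratified epithelium, had 2103, 1752 and 1408 CPM in WT and 2466, 2529 and 2276 CPM in MLST8-KO samples (log2 fold change 0.47 ± 0.13 SE, adjusted p = 0.0211, edgeR), with WT samples in the order seen in the desmosome genes. GRHL2 and GRHL3, grainyhead factors of epithelial junctions, rose by 0.43 and 0.37 (adjusted p = 0.0233 and 0.0368) and OVOL2 by 0.65 (adjusted p = 0.0336). KLF5 (0.14) and CEBPB (-0.16) did not pass. Without MLST8-KO replicate 1, MLST8-KO replicate 2 or WT replicate 2, 0 of these rose. The number was 1 without MLST8-KO replicate 3 and 2 without WT replicate 3 or in DESeq2. Of 5 repressors of epithelial junctions tested, 0 were called in either direction by edgeR or DESeq2 and 1 was higher in limma, while 2 were higher and 1 lower at an unadjusted p under 0.05. SNAI2, the most abundant of them, had a log2 fold change of -0.09 (adjusted p = 0.586, edgeR).

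The genes whose profile over the 6 samples was most like a desmosome gene were found by the root mean square difference of centred log2 CPM, among 11188 genes with a mean of at least 50 counts. For DSG3 they were HELLS (0.05), CHRNA5 (0.06) and TLE3 (0.07). DSP was matched by CCNA2 (0.02), ATP9A (0.03) and SVIL (0.03), and PKP1 by TRIP6, PIK3R3 and AFAP1L2 (0.05 each). CCNA2 (cyclin A2) had 39.6, 31.7 and 24.75 CPM in WT and 49.2, 52.0 and 43.6 CPM in MLST8-KO samples, which follows DSP sample by sample. The points are 6 libraries shared by all genes, so likeness includes whatever the libraries have in common, and none of the 9 nearest genes belongs to the junction lists.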

How the data were processed

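RNA from HCC2814 cells was polyA selected and sequenced by BGI. The labels and the paper name different RNA extraction kits. After read filtering the authors used HISAT for alignment to GRCh38.p12 and Bowtie2 for assignment to genes (versions are not given in the sources used here), and deposited estimated counts, TPM and FPKM per gene and sample. Deposited estimated counts are not normalized, while the deposited TPM and FPKM values are scaled for transcript length and depth by the authors. A further deposited table with the authors' own DESeq2 and sample-to-sample comparisons was not used. Of 17448 genes, 25 symbols that had become dates were restored through Entrez identifiers.

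Since 12.4% of estimated counts were not whole (among them those of DSG2, DSG3 and DSC3), they were rounded, although the design had been written for counts. MLST8-KO and WT were compared with edgeR 4.0.16 in R 4.3.3 (TMM, filterByExpr, glmQLFit and glmQLFTest, no replicate pairing). Benjamini-Hochberg adjustment ran over 12951 genes left by the filter, and the threshold was 0.05. Replicates were treated as separate samples, as the submitters describe them. Each pair within a group differed beyond sampling noise. That check looks for repeat sequencing of the same library and cannot show that the cultures were independent. As alternatives, DESeq2 1.42.0, limma 3.58.1 (log2(TPM + 1) and log2(TPM + 0.1)), RLE or upper quartile scaling, removal of the filter, a minimum of 10 counts per sample, a replicate block, FPKM for shares, and omission of each sample were run. The fitting steps were also run on simulated counts with known changes.

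The desmosome genes and the 11 lists were chosen with earlier results of these data known. Named genes are the 10 desmosome genes, MLST8, up to 8 called genes per list by size of change, up to 3 uncalled genes per list with at least 1000 counts on average, the cadherin cluster with its protein-coding neighbours, and the 3 nearest profiles of DSG3, DSP and PKP1. KAZN, PKP2, EVPL, CDH1, KRT10 and single markers were named outside this rule after their values were seen. Some items that the rule would name are not reported here. Coordinates are from GENCODE release 29 (GRCh38), promoters from RefSeq (GRCh38.p14). Figures were drawn with matplotlib 3.10.9 in Python 3.11.15.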

Additional observations from a re-analysis of the deposited data

How the results depend on the processing

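DSC3, PKP1 and MLST8 kept their direction and call under all 14 alternatives run. DSP lost its call in 1, DSG3 in 2, DSG1 and DSG2 in 3 each and DSC2 in 6, JUP gained one in 3, and the cause was not tested. The estimate for PKP3 ran from -0.054 (without MLST8-KO replicate 3, the 1 reversal) to 0.17 over the fits that left out a sample. Leaving out 1 sample gave 2 to 9 desmosome genes higher and 0 lower, 971 to 2692 genes higher and 850 to 2651 lower over all genes. These fits rest on fewer samples, and the lowest counts came without WT replicate 2 and MLST8-KO replicates 1 and 2. With limma, 1134 genes were lower on log2(TPM + 1) and 1132 on log2(TPM + 0.1), and 2782 and 2764 higher, against 2030 lower and 2116 higher in edgeR, and the all-gene median was 0.09 and 0.10. Upper quartile scaling gave 2546 higher and 1559 lower, with 7 desmosome genes higher. DESeq2 gave 1858 and 2012, with 6 desmosome genes higher. Replicate numbers did not pair the samples by the rule used (correlations of same-numbered deviations 0.10, 0.06 and 0.14, not all above 0.1), although all 6 samples correlated best with their own number. With the replicate block, 2261 genes were higher and 2157 lower, 7 desmosome genes were higher, and no desmosome gene changed its call. In the lists, the block gave 2 upper-layer differentiation genes lower (0 without it), 5 adherens junction genes higher (3 without it) and 1 adhesion kinase or modifying enzyme lower (2 without it). Depth limits DSC1 and DSG4, which were at or near the floor of 3 counts, and DSG1.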

Other observations

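Enzymes and inhibitors that act on desmosomes were described as a further list. Of 9 such genes tested, 2 rose and 1 fell (median log2 fold change 0.12), and these counts were near the shares of all genes tested (16.3% higher and 15.7% lower). KLK5, a kallikrein that can cleave desmosomal cadherins, had 129, 118 and 129.9 CPM in WT and 83.5, 76.7 and 106 CPM in MLST8-KO samples and fell by 0.50 (adjusted p = 0.0117, edgeR), with no overlap. SPINK5, which encodes an inhibitor of kallikreins, was scarce at 1.46, 2.07 and 1.30 CPM against 2.84, 2.53 and 2.95 CPM and rose by 0.78 (adjusted p = 0.0350). ST14 (matriptase) rose by 0.57 (adjusted p = 0.00972). ADAM15, ADAM17 and USP9X, at -0.14, -0.19 and 0.12, did not pass. The number that rose was 1 without any 1 of the MLST8-KO samples or WT replicate 3, and the number that fell was 0 without MLST8-KO replicate 1 or 2 and 2 without WT replicate 3.

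Of 9 kinases and modifying enzymes linked to desmosomal adhesion, 0 rose (1 at an unadjusted p under 0.05, and 0 in DESeq2 and in limma on log2(TPM + 1)) and 2 fell, with a median of -0.01. Over all genes tested the shares were 16.3% higher and 15.7% lower. GSK3B, a kinase that modifies the tail of desmoplakin, had 188, 228 and 291 CPM in WT and 117, 138 and 128.5 CPM in MLST8-KO samples and fell by 0.88 (adjusted p = 0.00357, edgeR). Its WT samples had the reverse order of those of DSP. MAPK14 (p38) fell by 0.30 (adjusted p = 0.0423), while EGFR, PRMT1 and ZDHHC5 did not pass, at -0.01, 0.05 and -0.15. With upper quartile scaling, and in the fit without WT replicate 3, 1 gene of this list rose. The number that fell was 2 without WT replicate 1 and 1 in limma on log2(TPM + 1), with upper quartile scaling and in each of the other fits that left out a library.

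Gap junction genes, whose products form channels between cells, all passed the test but in both directions, with 4 of 7 higher and 3 lower and a median of 0.49. Among all genes tested, 16.3% were higher and 15.7% lower. GJB6, GJA1 (connexin 43) and GJB2 (connexin 26), all found in stratified epithelium, rose by 1.5, 1.07 and 0.75 (adjusted p = 0.00516, 0.00339 and 0.00812, edgeR), and GJC1 by 0.49. GJB5 fell by 0.38 (adjusted p = 0.0141). GJB6 had 102, 57.6 and 38.45 CPM in WT and 214, 190.3 and 157 CPM in MLST8-KO samples. The number that rose was 3 without MLST8-KO replicate 1, MLST8-KO replicate 2 or WT replicate 3. The number that fell was 1 without MLST8-KO replicate 1, MLST8-KO replicate 2 or WT replicate 2.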
